A study of Homo sapiens with 10 samples.

Results

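C4-2 cells with a stable GFP fusion of wild-type ARRB1 (wtARRB1, 2 arrays) were compared with C4-2 cells that carried the GFP vector alone (GFP, 3 arrays). The samples were chosen by their titles, which gave 5 of the 10 arrays of the study, and all 48801 probes of its quantile-normalised log2 values were tested. C4-2 is an established human prostate cancer line. The other 5 arrays came from parental C4-2 cells without a vector (3 arrays) and from cells with a nuclear form of the fusion (nucARRB1, 2 arrays). They entered the fit for its estimate of spread and served as a second control group and as a second ARRB1 line. All cells were of 1 line, were grown in serum without further treatment, and the transfected lines were kept under G418 selection. The wtARRB1 construct carried a synthetic, humanised ARRB1 coding sequence joined to AcGFP, and the GFP line carried the empty AcGFP vector. Whether each stable line was 1 clone or a pool was not given in the sources used here, so a line and its transgene cannot be told apart. The titles number the arrays of a group as replicates without saying whether these were separate lines, cultures or preparations. The p-values measure the spread between these arrays only.

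ARRB1 encodes β-arrestin 1, a scaffold that binds activated G protein-coupled receptors, uncouples them from G proteins and hands them to the clathrin endocytic coat. It also enters the nucleus, where it acts as an adaptor in transcription complexes. The comparison asked how the transcriptome of the line with the wild-type fusion differed from that of the vector line.

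Without scaling, the median log2 value per array lay from 6.22 to 6.45 over the 5 arrays, and after quantile normalisation all were at 6.31. The wtARRB1 arrays correlated with each other at r = 0.986 over all probes and the GFP arrays at r = 0.989 to 0.991, while wtARRB1 and GFP arrays correlated at r = 0.970 to 0.974. The luminal epithelial markers EPCAM (11.89 to 12.30), CDH1 (11.39 to 12.05) and KRT18 (11.85 to 12.60) were bright on all 5 arrays. KLK3, the gene of prostate-specific antigen, was dim (6.14 to 7.37). The defining markers of basal cells (KRT5, KRT14), neuroendocrine cells (CHGA, SYP), fibroblasts (COL1A1, DCN) and blood cells (PTPRC, CD3E) lay between 5.94 and 6.92. Of the defining endothelial markers, PECAM1 reached at most 6.60 and VWF lay from 7.10 to 7.92.

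Of 18664 genes, 1681 differed between wtARRB1 and GFP at a false discovery rate of 1% (9.01%), with 802 higher in wtARRB1 (4.3%) and 879 lower (4.71%). The arrays of both groups did not overlap for 7348 genes (39.4%). The split between higher and lower genes depended on the scaling, with 345 higher and 1264 lower after median scaling and 204 higher and 1331 lower without scaling, where the median of all genes moved to -0.12. A change of at least 2-fold was found for 250 higher genes (1.34%) and 246 lower genes (1.32%). The count of called genes fell to 1098 without GFP replicate 1, to 1091 without GFP replicate 3 and to 1014 without wtARRB1 replicate 1. The highest rises were those of S100P, DDIT4, GDF15 and CTH, and the deepest falls those of ID1, ID3 and UHRF1.

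**Figure D1:**
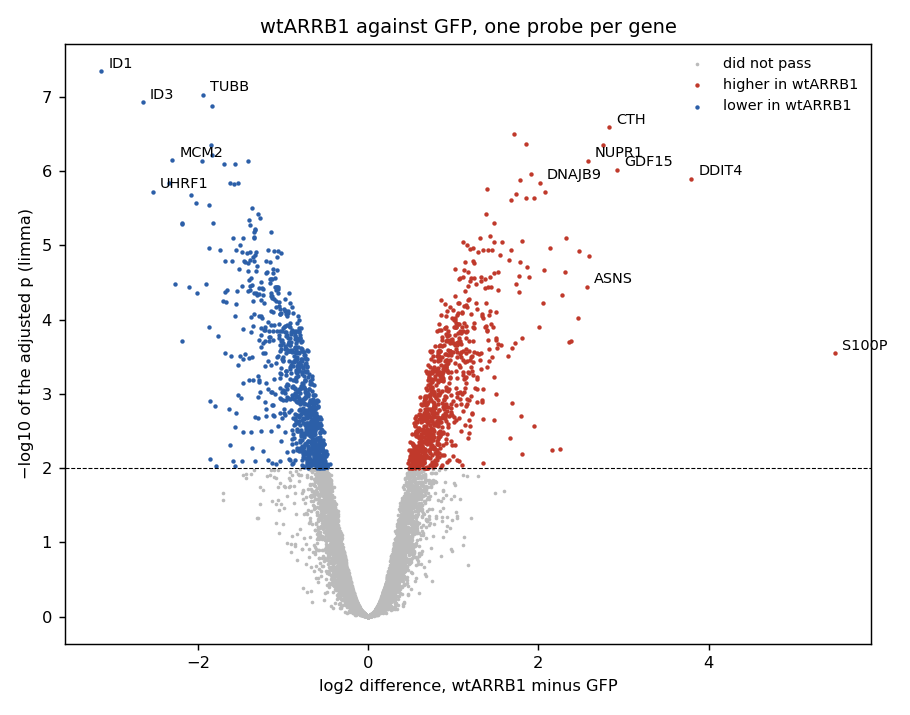
Each point is 1 gene, with its log2 difference (wtARRB1 minus GFP) on the x axis and −log10 of the adjusted p from limma on the y axis, and the dashed line marks the 1% false discovery rate. The 802 genes above the line on the right were higher in wtARRB1 and the 879 on the left lower, with S100P farthest to the right and ID1 farthest to the left.

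The second control group was set beside GFP for these genes. Both comparisons use the same 2 wtARRB1 arrays, and the genes were selected on those arrays. Agreement in direction was therefore largely fixed in advance and is no separate support. Of the 802 higher genes 394 were also called higher than in parental cells, of the 879 lower genes 399 were also called lower, and none was called in the opposite direction. The sign of the difference was the same against parental cells for 1673 of the 1681 genes. In wtARRB1 against parental cells 910 genes were called (4.88%), with 461 higher (2.47%) and 449 lower (2.41%). Between GFP and parental cells 9 genes differed (0.0482%), with 1 higher in GFP (0.00536%) and 8 lower (0.0429%). Of these, 8 were also called in wtARRB1 against GFP, and 7 of the 8 had their lowest group mean in GFP among these 3 groups. SNHG5, a host gene of small nucleolar RNAs, read 9.80, 10.07 and 10.11 in parental cells, 8.75, 9.09 and 9.06 in GFP, and 10.65 and 10.64 in wtARRB1. The ribosomal protein gene RPL21 read 12.29, 12.28 and 12.39 in parental cells, 11.35, 11.39 and 11.67 in GFP, and 12.23 and 12.63 in wtARRB1. For RPL21 it was thus the GFP arrays that stood apart. The 9 genes depended on single arrays, and their number was 0 without parental replicate 2 or GFP replicate 2 or 3, 1 without GFP replicate 1, 2 without parental replicate 3 and 33 without either nucARRB1 array. Parental replicate 1 stood nearer to wtARRB1 than the other parental arrays did. Its median distance from the GFP mean was 0.32 over the 802 higher genes and -0.29 over the 879 lower genes, against 0.13 and 0.13, and -0.17 and -0.19, in parental replicates 2 and 3.

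ARRB1 itself did not read higher in the wtARRB1 line. Its brightest probe gave 8.13, 8.59 and 8.62 in GFP and 7.72 and 7.65 in wtARRB1, so the wtARRB1 arrays were both below the GFP arrays. The parental arrays read 8.28, 8.48 and 8.44 and the nucARRB1 arrays 8.30 and 7.71. The log2 difference was -0.77 (SE 0.17, adjusted p = 0.00702), and the call ended without parental replicate 2 or 3, without GFP replicate 2 or 3 and without either wtARRB1 array (adjusted p up to 0.0615). The other 3 probes of ARRB1 did not pass, with differences of -0.39, -0.18 and -0.05. Whether any of the probes can read the synthetic sequence was not tested, so the probes do not check the labels. Of 13 measured arrestins and receptor kinases 1 was called, which was ARRB1. Among 15 clathrin coat and endocytic adaptor genes, which include the partners of arrestins at the membrane, EPS15 rose by 0.86 (7.02, 7.24 and 7.27 in GFP, 7.96 and 8.12 in wtARRB1, adjusted p = 0.00041). AP2M1, the cargo-binding subunit of the adaptor complex AP2, fell by 0.65 (adjusted p = 0.00257). That call ended without GFP replicate 1 or 3 or wtARRB1 replicate 2 (adjusted p up to 0.0512). The other 13 did not pass.

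S100P, a small calcium-binding protein of the EF-hand family, rose the most of all genes. It read 7.47, 7.83 and 7.62 in GFP and 13.07 and 13.18 in wtARRB1, a 44.7-fold difference (log2 5.48, SE 0.80, adjusted p = 0.000283). The parental arrays read 10.87, 6.62 and 6.74, so that parental replicate 1 alone among the controls was also high. The S100P call ended when the prior variance was given a trend and robust shrinkage, and so did those of PRSS1, PCK2 and NIBAN1. The other 13 measured S100 and EF-hand genes did not pass. DDIT4, which restrains the growth kinase mTORC1 under stress, read 9.30, 8.98 and 9.19 in GFP and 12.93 and 12.96 in wtARRB1. That was a 13.9-fold rise (log2 3.79, SE 0.29, adjusted p = 1.3e-06), with the groups far apart. GDF15, a secreted stress cytokine, read 10.40, 10.67 and 10.43 in GFP and 13.54 and 13.31 in wtARRB1 (7.62-fold, adjusted p = 9.6e-07). In parental cells both DDIT4 and GDF15 stood between GFP and wtARRB1, and the difference of wtARRB1 from parental was 2.21 for DDIT4 and 1.64 for GDF15. The glucocorticoid-induced TSC22D3 read 7.53, 7.74 and 8.07 in GFP and 10.18 and 10.89 in wtARRB1 (6.76-fold, adjusted p = 4.5e-07), with no overlap. Further large rises were SERPINA3, a secreted inhibitor of serine proteases (6.05-fold), NUPR1, a small stress-induced chromatin protein (5.97-fold), BEST1, a chloride channel (5.58-fold), PRSS1, cationic trypsinogen (5.51-fold), PCK2, the mitochondrial form of phosphoenolpyruvate carboxykinase (5.21-fold), and NIBAN1, a stress-responsive regulator of translation (5.13-fold). SERPINA3 (6.12, 6.48 and 6.10) and BEST1 (6.32, 6.32 and 6.55) read near the array median in GFP, the level of the defining markers of other cell types, and were not shown to be above background there, so their folds and their place among the largest rises may understate the change.

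**Figure D2:**
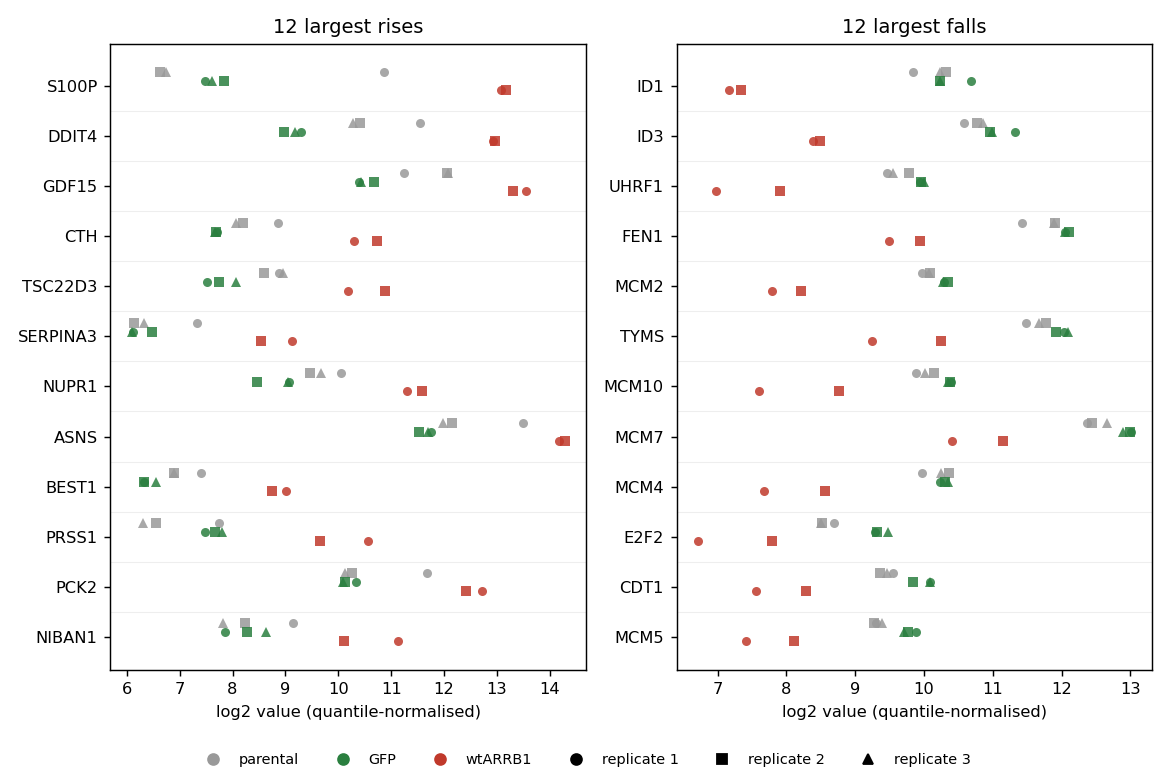
Log2 values per array (x axis) for the 12 genes with the largest rise (left) and the 12 with the largest fall (right) in wtARRB1 against GFP, with colours for groups and symbols for replicate numbers. Only called genes without overlap between wtARRB1 and GFP arrays were eligible, so the gap between these groups is a condition of the choice. Parental replicate 1 is the control nearest to wtARRB1 for S100P, at 10.87.

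Among the risen genes were members of the response to amino acid shortage and to stress of the endoplasmic reticulum (ER). In that response, phosphorylation of the initiation factor eIF2α slows general translation but lets the transcription factor ATF4 be made, and ATF4 with C/EBP partners turns on genes of amino acid import, synthesis and tRNA charging. Of 17 measured stress transcription factors and kinases 7 rose and 0 fell, with a median log2 difference of 0.43 against -0.0031 over all genes. DDIT3, the pro-apoptotic factor CHOP, read 9.13, 8.76 and 8.76 in GFP and 11.07 and 10.99 in wtARRB1 (4.41-fold, adjusted p = 1.1e-05). TRIB3, a pseudokinase induced by ATF4 and CHOP, read 9.87, 9.55 and 9.91 against 12.03 and 11.54 (4.02-fold). CEBPB, a bZIP partner of ATF4, rose 2.60-fold. ATF4 (1.78-fold), ATF3 (2.34-fold) and CEBPG (2.22-fold), which were picked after their values were seen, were the other risen members beside NUPR1. The call of ATF4 ended without GFP replicate 3 or wtARRB1 replicate 1 (adjusted p up to 0.0841). ER chaperones, a separate arm of the same stress system, mostly did not pass, with 1 of 15 higher and 1 lower. The higher one was DNAJB9, a co-chaperone of BiP, which rose from 9.23, 9.80 and 9.75 to 11.67 and 11.55 (4.05-fold, adjusted p = 1.4e-06). The lower one, SDF2L1, fell by 0.58, a call that ended without any of 7 single arrays (adjusted p up to 0.0957).

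Amino acid transporters rose as a group. Of 10 measured, 8 rose and 0 fell, with a median of 1.05. SLC6A9, the glycine transporter GlyT1, read 6.75, 6.95 and 6.86 in GFP and 9.44 and 8.90 in wtARRB1 (log2 difference 2.32, adjusted p = 7.99e-06). SLC7A11, which exchanges glutamate for cystine, read 6.75, 6.74 and 7.13 against 8.16 and 8.62 (2.86-fold, adjusted p = 0.00024). In parental replicate 1 the mean of the list was 0.39 from the GFP mean, against 0.08 and 0.05 in replicates 2 and 3. SLC3A2 and SLC7A5, the heavy and light chains of the leucine transporter, rose 2.35-fold and 2.22-fold. SLC6A9, SLC7A11, SLC3A2 and SLC7A5 were all higher on both wtARRB1 arrays than on any GFP array. The count of 8 fell to 4 without wtARRB1 replicate 1 and to 5 without GFP replicate 3. The call of SLC3A2 ended without wtARRB1 replicate 1 (adjusted p = 0.0109), and that of SLC7A5 without GFP replicate 1 or 3 or wtARRB1 replicate 1 (adjusted p up to 0.0361).

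In transsulfuration and glutathione metabolism 3 of 12 measured genes rose and 0 fell. CTH, which releases cysteine from cystathionine, read 7.71, 7.69 and 7.67 in GFP and 10.29 and 10.73 in wtARRB1 (7.08-fold, adjusted p = 2.6e-07), and all 3 of its probes were called higher. CHAC1, which degrades glutathione, read 6.17, 6.20 and 6.29, near the array median, in GFP and 7.19 and 7.40 in wtARRB1 (2.11-fold, adjusted p = 0.000204), and as it was not shown to be above background in GFP this fold may understate the change. The third was SLC7A11. Of 11 genes of glutamine, aspartate and asparagine metabolism 4 rose and 1 fell. The median was 0.36, but 0.09 after median scaling and 0.001 without scaling. ASNS, asparagine synthetase, read 11.75, 11.53 and 11.70 in GFP and 14.18 and 14.28 in wtARRB1 (5.94-fold, adjusted p = 3.6e-05). Its parental values were 13.49, 12.15 and 11.99, with parental replicate 1 again nearest to wtARRB1. ASS1, which joins citrulline and aspartate, read 8.42, 8.39 and 7.997 against 10.40 and 10.77 (4.98-fold). OAT, ornithine aminotransferase, rose 2.31-fold, a call that ended without wtARRB1 replicate 2 (adjusted p = 0.0123). PYCR1, of proline synthesis, rose 1.57-fold and GOT2, the mitochondrial aspartate aminotransferase, fell by 0.55, and both calls ended without most single arrays (adjusted p up to 0.0636 and 0.0673). The list count of risen genes was 2 without wtARRB1 replicate 2.

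Of 11 serine, glycine and one-carbon genes 5 rose, 3 fell and 3 did not pass. The serine synthesis enzymes PSAT1 (11.45, 11.28 and 11.24 in GFP, 13.05 and 12.98 in wtARRB1, 3.24-fold) and PSPH (2.77-fold) rose, while PHGDH, the first enzyme of the same pathway, did not pass (13.66, 13.76 and 13.998 in GFP, 14.32 and 13.99 in wtARRB1, log2 difference 0.35, adjusted p = 0.225). GLDC, of glycine cleavage, and the mitochondrial ALDH1L2 did not pass either (-0.06 and 0.04). The mitochondrial folate enzymes MTHFD2 (2.43-fold), SHMT2 (1.90-fold) and MTHFD1L (1.77-fold) rose, the last of which was picked after its values were seen. The cytosolic enzymes MTHFD1 and SHMT1 fell by 0.98 and 0.92, and thymidylate synthase TYMS, which uses folate to make dTMP, fell by 2.27. The MTHFD2 call ended without wtARRB1 replicate 2 (adjusted p = 0.0192). The calls of SHMT2 and MTHFD1L ended without GFP replicate 1 or wtARRB1 replicate 1, and that of SHMT2 also without GFP replicate 2 or 3 (adjusted p up to 0.0933 and 0.0407). The count of risen members was 3 without either GFP replicate 1 or wtARRB1 replicate 1.

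Aminoacyl-tRNA synthetases load each amino acid onto its tRNA, and the cytosolic and mitochondrial sets are largely separate genes. Of 19 cytosolic ones 7 rose and 2 fell, with a median of 0.47. Arrays did not overlap for 18 of the 19, against 39.4% of all genes. SARS1 for serine (8.31, 7.92 and 8.29 in GFP, 9.82 and 9.40 in wtARRB1) rose 2.70-fold and GARS1 for glycine 2.69-fold. IARS1 for isoleucine rose 1.89-fold. WARS1 for tryptophan rose 2.22-fold, a call that ended without wtARRB1 replicate 1 (adjusted p = 0.0175). VARS1 and FARSA, for valine and phenylalanine, fell by 0.80 and 0.74. The call of VARS1 ended without GFP replicate 1 or 2 or wtARRB1 replicate 2 (adjusted p up to 0.109). The count of 7 was 3 without wtARRB1 replicate 1 and 4 without parental replicate 2 or 3 or GFP replicate 2 or 3. It was 3 after median scaling. Of 15 mitochondrial synthetases 0 rose and 1 fell, LARS2 for leucine (-0.84, adjusted p = 0.00061).

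Secreted stress factors rose, with 5 of 9 measured members higher and 0 lower (median 0.99). Beside GDF15 these were VEGFA, the angiogenic growth factor (7.19, 7.22 and 7.57 in GFP, 9.54 and 8.89 in wtARRB1, 3.70-fold), STC2, the glycoprotein stanniocalcin 2 (9.20, 9.17 and 9.28 against 11.39 and 10.87, 3.76-fold), FGF21, a metabolic hormone (3.85-fold), and INHBE, an activin subunit (1.98-fold). In GFP, FGF21 (6.36, 6.35 and 6.24) and INHBE (6.32, 6.12 and 6.26) read near the array median and were not shown to be above background, so their folds may understate the change. The FGF21 call ended without any GFP array or without wtARRB1 replicate 2 (adjusted p up to 0.0497). Other VEGFA probes read 0.73 and 0.08 and were not called (limma, adjusted p = 0.0168 and 0.852). Of 11 mTORC1 brakes and translation repressors 2 rose and 0 fell, DDIT4 and SESN2, a sestrin that senses leucine (1.70-fold). SESN2 lost its call without wtARRB1 replicate 2 (adjusted p = 0.0268). In autophagy and lysosome genes 4 of 24 rose and 0 fell, led by MAP1LC3B, the LC3 protein of the autophagosome membrane (8.28, 8.38 and 8.30 against 10.31 and 9.90, 3.45-fold, adjusted p = 1.7e-05), with GABARAPL1 (2.06-fold), GABARAPL2 (1.69-fold) and ATG7 (1.60-fold). The call of ATG7 ended without GFP replicate 1 or 3 or wtARRB1 replicate 2 (adjusted p up to 0.0975), and the median of the autophagy list was 0.12, which turned to -0.04 after median scaling and -0.13 without scaling.

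The promoters of risen genes were searched for the C/EBP-ATF response element, the composite site that ATF4 binds together with a C/EBP factor, written TGATGNAA on either strand. Sequences were taken from RefSeq (GRCh38.p14) and ran from 250 bases before to 50 after 1 listed start of each gene. The element was in 16 of the 205 promoters of genes called at least 2-fold higher (7.8%) and in 2 of 215 of those at least 2-fold lower (0.93%), against 2.71% of the promoters of all genes tested and 3.67% of all promoters. Within the amino acid and stress lists it was in 7 of 26 promoters of risen genes (26.9%) and in 8 of 41 of the others (19.5%). A match is a description and shows no binding. The promoters of ASNS, CHAC1 and S100P are shown because they held the element in a gene with a large or well-studied response. They are written 5′ to 3′ on the strand of the gene, with the element in capitals in either orientation. The windows were chr7:97872359-97872658 on the minus strand for ASNS, chr15:40953221-40953520 on the plus strand for CHAC1 and chr4:6693628-6693927 on the plus strand for S100P.
ASNS: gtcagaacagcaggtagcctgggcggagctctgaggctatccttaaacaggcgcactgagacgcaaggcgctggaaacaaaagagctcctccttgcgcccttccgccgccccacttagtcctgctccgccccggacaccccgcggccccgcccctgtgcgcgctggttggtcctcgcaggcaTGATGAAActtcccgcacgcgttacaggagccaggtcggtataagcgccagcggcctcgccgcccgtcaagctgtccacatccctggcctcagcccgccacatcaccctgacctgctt
CHAC1: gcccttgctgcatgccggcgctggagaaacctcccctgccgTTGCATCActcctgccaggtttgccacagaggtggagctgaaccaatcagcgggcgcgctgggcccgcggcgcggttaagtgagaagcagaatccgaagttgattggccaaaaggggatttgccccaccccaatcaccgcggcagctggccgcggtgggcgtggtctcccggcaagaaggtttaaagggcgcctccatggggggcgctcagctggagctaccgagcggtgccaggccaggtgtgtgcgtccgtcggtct
S100P: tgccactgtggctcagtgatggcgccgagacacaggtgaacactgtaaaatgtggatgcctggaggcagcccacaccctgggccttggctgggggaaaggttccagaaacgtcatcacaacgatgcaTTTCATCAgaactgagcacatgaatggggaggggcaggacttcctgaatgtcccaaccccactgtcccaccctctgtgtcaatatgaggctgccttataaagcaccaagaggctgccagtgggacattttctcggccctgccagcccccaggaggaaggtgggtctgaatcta
Counted from the start, the first base of the element was at -68 in ASNS, -209 in CHAC1 and -123 in S100P.

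The largest fall was in the ID genes, which encode helix-loop-helix proteins without a DNA-binding region that hold back differentiation factors, and which bone morphogenetic proteins (BMPs) induce through SMADs. ID1 read 10.69, 10.23 and 10.23 in GFP and 7.16 and 7.34 in wtARRB1, and fell by 3.13 (SE 0.16, adjusted p = 4.5e-08). ID3 read 11.32, 10.95 and 10.99 against 8.38 and 8.49 and fell by 2.65. ID2 read 9.99, 9.41 and 9.25 against 8.12 and 7.67 and fell by 1.65 (adjusted p = 4.04e-05). The wtARRB1 arrays were below every GFP and parental array for ID1 and ID3. SMAD6, an inhibitory SMAD induced by BMP, fell by 0.84 (8.61, 8.53 and 8.53 in GFP, 7.74 and 7.68 in wtARRB1, adjusted p = 0.00051). These 4 kept their calls without any 1 array, and the other 13 of 17 measured genes of the ID and BMP-SMAD list did not pass. The second probe of ID1 read -0.62 and was not called (adjusted p = 0.0356).

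DNA replication genes fell together. Before S phase, the MCM helicase is loaded at origins by ORC, CDC6 and CDT1, and the E2F factors turn on the genes of this step and of the fork. Of 20 origin licensing genes 12 fell and 0 rose, with a median of -0.99. MCM2 read 10.29, 10.35 and 10.28 in GFP and 7.79 and 8.22 in wtARRB1 and fell by 2.30 (4.94-fold, SE 0.17, adjusted p = 7.1e-07). MCM10, MCM7, MCM4, MCM5 and CDT1 fell by 2.19, 2.18, 2.18, 2.02 and 2.08, of which MCM10 lost its call with a variance trend and robust shrinkage. MCM7 read 13.01, 12.999 and 12.89 in GFP and 10.41 and 11.15 in wtARRB1. CDC45, picked after its values were seen, read 11.25, 11.29 and 11.29 in GFP against 8.54 and 10.29, and its call ended without any of 6 arrays (adjusted p up to 0.185). Over the licensing genes wtARRB1 replicate 1 was the lower of the wtARRB1 arrays. Its mean was -1.36 from the GFP mean, against -0.88 in replicate 2, while the GFP arrays lay between -0.03 and 0.02.

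Of 32 replication fork genes 21 fell and 0 rose (median -0.97). FEN1, the flap nuclease of lagging-strand maturation, read 12.05, 12.10 and 12.05 in GFP and 9.50 and 9.94 in wtARRB1 and fell by 2.35 (adjusted p = 1.4e-06). TIMELESS, a fork protection protein, fell by 1.67, CHAF1B, of the chromatin assembly factor CAF-1, by 1.56, and GINS2, of the replicative helicase, by 1.48. The GINS2 call ended without any GFP array or without wtARRB1 replicate 1 (adjusted p up to 0.0445). The count of 21 was 13 without GFP replicate 2 and 13 without wtARRB1 replicate 1. Of 10 deoxynucleotide synthesis genes 6 fell and 1 rose (median -0.92). TYMS read 12.03, 11.93 and 12.09 in GFP and 9.24 and 10.24 in wtARRB1 (fell by 2.27, adjusted p = 3.3e-05). The ribonucleotide reductase genes RRM2, picked after its values were seen, and RRM1 fell by 1.47 and 1.42, whereas RRM2B, a stress-induced subunit, rose by 0.56. TK1, thymidine kinase, fell by 1.86, a call that ended without wtARRB1 replicate 1 (adjusted p = 0.0345). Without that array 3 members were called lower. RRM2B lost its call without GFP replicate 1 or 3 or wtARRB1 replicate 1 (adjusted p up to 0.0403).

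Genes that copy DNA methylation and chromatin marks after replication were lower as well, with 6 of 11 lower and 0 higher (median -0.70). UHRF1, which recruits the maintenance methyltransferase to new DNA, read 9.94, 9.96 and 10.00 in GFP and 6.97 and 7.90 in wtARRB1 and fell by 2.53 (5.78-fold, SE 0.21, adjusted p = 1.9e-06). Its other probe read -0.33 and was not called (adjusted p = 0.213). DNMT1, that methyltransferase, read 12.07, 12.27 and 12.17 against 10.52 and 10.69 and fell by 1.57 (adjusted p = 8.02e-07). ASF1B, a histone chaperone, and EED, of the polycomb complex PRC2, fell by 1.87 and 0.77. Of 14 histone genes 1 was called, H2AX, which fell by 1.91. In the E2F and retinoblastoma families 4 of 13 fell and 1 rose. E2F2, an activating E2F, read 9.29, 9.31 and 9.48 in GFP and 6.72 and 7.80 in wtARRB1 (fell by 2.11, adjusted p = 3.7e-05), and E2F7, E2F3 and the dimer partner TFDP1 fell by 1.24, 0.70 and 0.68, while E2F5 rose by 0.77. The calls of E2F3, TFDP1 and E2F5 each ended without at least 1 array (adjusted p up to 0.0309, 0.0276 and 0.025), and without wtARRB1 replicate 1 there were 2 lower members.

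The E2F site was searched in the same promoter windows, written TTTGGCGC or TTTCCCGC on either strand. It was in 26 of 215 promoters of genes at least 2-fold lower (12.1%) and in 3 of 205 of those at least 2-fold higher (1.46%), against 3.04% of the promoters of all genes tested and 2.31% of all promoters. Within the replication lists it was in 12 of 36 promoters of fallen genes (33.3%) and in 7 of 18 of the others (38.9%), so the fallen members were not richer in it than their list. MCM7 (chr7:100101348-100101647, minus strand), UHRF1 (chr19:4909251-4909550, plus strand) and E2F2 (chr1:23531184-23531483, minus strand) are shown as members of 3 fallen lists that held the site, which is in capitals.
MCM7: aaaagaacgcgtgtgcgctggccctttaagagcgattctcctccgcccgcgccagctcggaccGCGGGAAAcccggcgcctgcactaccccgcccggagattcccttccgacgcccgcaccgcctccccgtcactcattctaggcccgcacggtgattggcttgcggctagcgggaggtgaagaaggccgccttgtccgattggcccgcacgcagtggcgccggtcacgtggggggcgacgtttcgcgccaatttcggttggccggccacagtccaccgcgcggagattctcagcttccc
UHRF1: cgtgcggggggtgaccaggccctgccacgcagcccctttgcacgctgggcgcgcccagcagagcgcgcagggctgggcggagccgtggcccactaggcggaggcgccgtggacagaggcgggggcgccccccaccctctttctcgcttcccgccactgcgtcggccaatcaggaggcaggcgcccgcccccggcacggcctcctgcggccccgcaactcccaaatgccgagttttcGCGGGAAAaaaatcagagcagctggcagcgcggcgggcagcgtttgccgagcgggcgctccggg
E2F2: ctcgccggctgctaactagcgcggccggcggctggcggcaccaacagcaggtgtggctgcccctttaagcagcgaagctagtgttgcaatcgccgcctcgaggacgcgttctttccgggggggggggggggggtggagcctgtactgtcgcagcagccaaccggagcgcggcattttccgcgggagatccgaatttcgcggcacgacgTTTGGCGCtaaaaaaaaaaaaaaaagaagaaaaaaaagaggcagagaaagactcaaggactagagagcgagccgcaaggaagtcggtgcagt
The first base of the site was at -187 in MCM7, -14 in UHRF1 and -42 in E2F2. Another 3 motifs were searched on both strands, which makes 5 in all. The hypoxia response element core (ACGTG) was in 29.3% of the at least 2-fold higher, 28.4% of the at least 2-fold lower and 23.6% of all tested promoters, and in 21.6% of all promoters. The cAMP response element (TGACGTCA) was in 3.41%, 3.72%, 2.69% and 1.98% of the same sets. The cell cycle homology region (TTTGAA) was in 11.7%, 21.4%, 12.4% and 15.4% of them, and in 1 of the 36 promoters of fallen replication genes (2.78%).

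Cyclins, cyclin-dependent kinases (CDKs) and mitotic genes were lower. Of 16 cyclins and CDKs 9 fell and 0 rose (median -0.97). CDK2, the kinase of S phase entry, read 10.57, 10.45 and 10.69 in GFP and 8.31 and 9.47 in wtARRB1 and fell by 1.68 (adjusted p = 0.00028). CDC25A, the phosphatase that activates it, fell by 1.56. CCNA2 and CDK1, of S phase and mitosis, fell by 1.62 and 1.59, calls that ended without any GFP array, without several parental ones and without wtARRB1 replicate 1 (adjusted p up to 0.111 and 0.189). Among genes picked after their values were seen, CDK4 fell by 1.15 and CCND1, cyclin D1, by 0.89, the latter not called without wtARRB1 replicate 2 (adjusted p = 0.0228). Of 34 mitotic kinase and spindle genes 16 fell, 0 rose and 18 did not pass, and the median was -1.07. Arrays did not overlap for 32 of the 34, against 39.4% of all genes. PLK4, the kinase of centriole duplication, read 9.13, 9.31 and 9.15 in GFP and 7.17 and 7.997 in wtARRB1 (fell by 1.61, adjusted p = 0.00031). KIF20A, PRC1 and CENPM, of the central spindle and the centromere, fell by 1.57, 1.48 and 1.36, and each lost its call without at least 3 single arrays (adjusted p up to 0.0552, 0.0954 and 0.113).

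The count of mitotic genes depended on the arrays used. It was 3 without wtARRB1 replicate 1, 10, 7 and 8 without GFP replicates 1, 2 and 3, and 29 without either nucARRB1 array. It was 25 after median scaling and 3 against parental cells. The mean of the mitotic list was -1.33 from the GFP mean in wtARRB1 replicate 1 and -0.80 in replicate 2, and -0.35 to -0.36 in the parental arrays. The nucARRB1 arrays, at -2.40 and -1.17, were farther apart from each other than the wtARRB1 arrays were. PLK1, a mitotic kinase picked after its values were seen, stood apart from GFP but not from parental cells. It fell by 1.04 against GFP (9.01, 8.78 and 9.02 in GFP, 7.67 and 8.13 in wtARRB1), a call that ended without any of 7 single arrays (adjusted p up to 0.126), and differed from parental cells by 0.04.

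**Figure D3:**
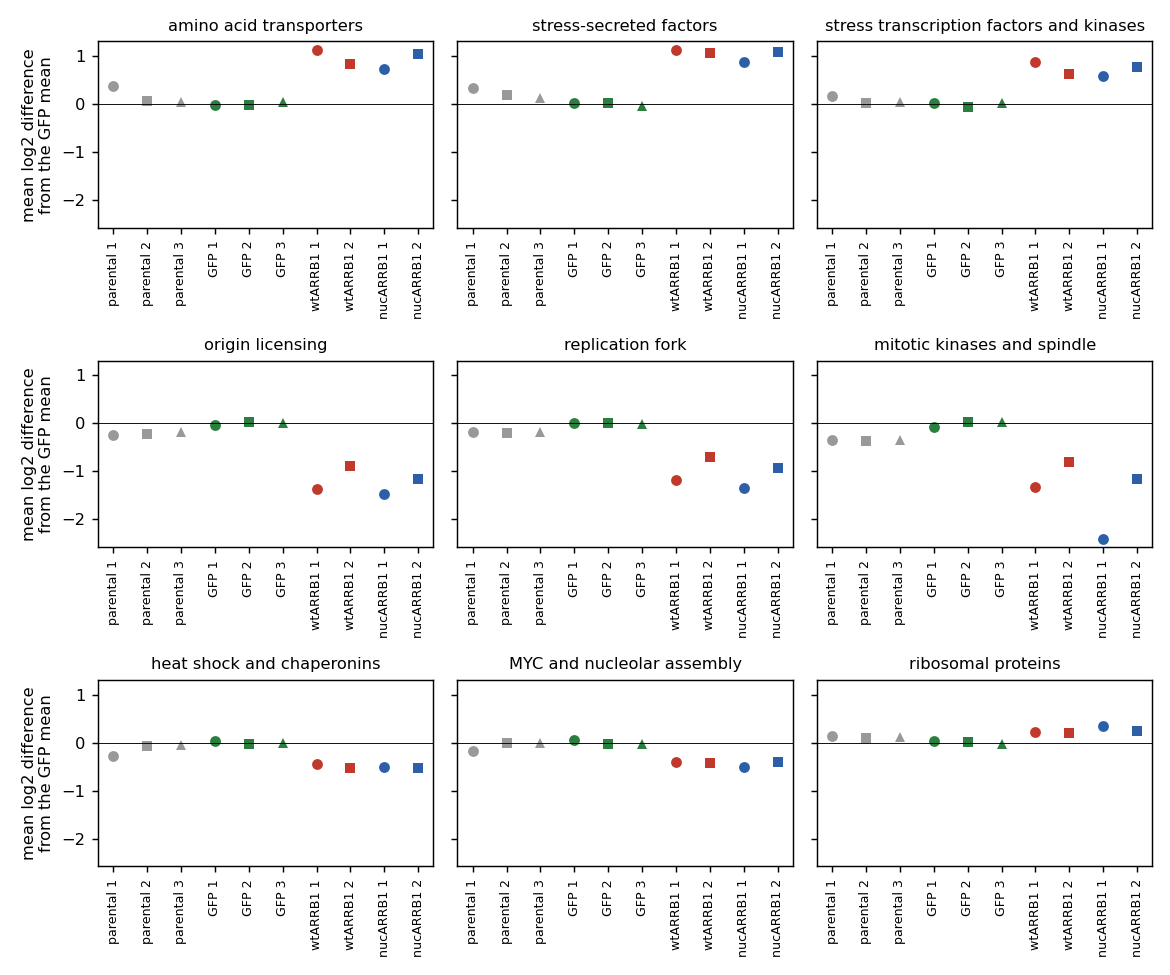
Each panel gives, for 1 gene list, the mean log2 difference of its measured members from the GFP mean (y axis) in each of the 10 arrays (x axis). Both wtARRB1 arrays lie above all controls for amino acid transporters (1.12 and 0.83) and below all controls for the replication and mitotic lists, where replicate 1 is the lower.

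Cell cycle inhibitors and growth arrest genes showed no common direction, with 2 of 18 higher, 2 lower and a median of 0.04. TP53INP1, an autophagy factor, rose 1.94-fold and RRM2B rose as above. CDKN2D, an inhibitor of CDK4, and BAX, a death effector, fell by 0.76 and 0.70. All 4 calls ended without at least 1 array (for TP53INP1, RRM2B, CDKN2D and BAX, adjusted p up to 0.013, 0.0403, 0.047 and 0.0119). Without wtARRB1 replicate 1 the counts were 0 higher and 1 lower.

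Genes of ribosome assembly in the nucleolus fell, with 11 of 24 lower and 0 higher (median -0.56). NOP56, a core protein of box C/D small nucleolar ribonucleoproteins, read 12.11, 12.05 and 11.85 in GFP and 10.88 and 10.98 in wtARRB1 (fell by 1.07, adjusted p = 2.2e-05). PA2G4, a regulator of growth that binds pre-ribosomes, NOLC1, a chaperone of snoRNPs, and NCL, nucleolin, fell by 1.17, 1.03 and 1.02. NCL lost its call without wtARRB1 replicate 2 (adjusted p = 0.011), and without that array the list had 7 lower members. MYC, a factor known to drive many of these genes, did not pass. It read 10.11, 9.84 and 9.83 in GFP and 11.06 and 11.12 in wtARRB1, and its log2 difference was 1.16 (SE 0.27, adjusted p = 0.0127). The parental arrays read 10.76, 11.07 and 10.97, all above the GFP arrays. The ribosomal protein genes did not follow the assembly genes. Of the 53 on the array, 46 did not pass, 7 rose and 0 fell (median 0.13). RPL21, RPS7, RPL26 and RPL9 rose 1.95-fold, 1.73-fold, 1.72-fold and 1.70-fold. The calls of RPS7 and RPL9 ended without at least 1 array (adjusted p up to 0.0683 and 0.0298). The count of 7 was 4 without GFP replicate 2 or either wtARRB1 array, 3 after median scaling and 1 against parental cells. Ribosomal protein genes have many processed pseudogenes, and their probes may share signal with these copies.

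Cytosolic chaperones were lower, with 11 of 22 heat shock and chaperonin genes called lower and 0 higher (median -0.53). HSPH1, a nucleotide exchange factor of HSP70, read 12.15, 12.11 and 12.12 in GFP and 11.14 and 10.90 in wtARRB1 (fell by 1.11, adjusted p = 5.2e-05). HSP90AA1, the inducible HSP90, read 14.08, 13.79 and 13.67 against 12.86 and 12.60 and fell by 1.12. DNAJA1 and HSPA1B fell by 1.17 and 1.13, calls that ended without wtARRB1 replicate 2 (adjusted p = 0.0101 and 0.0264). The count of 11 was 6 without either wtARRB1 array and 7 without any 1 GFP array. In cholesterol and fatty acid synthesis 4 of 21 fell and 1 rose (median -0.42). All 5 calls, FDPS (-0.80), ELOVL6 (-0.78), FASN (-0.71), PMVK (-0.67) and SC5D (1.22), ended without at least 3 single arrays (adjusted p up to 0.13, 0.217, 0.0969, 0.0232 and 0.0199). The count of lower genes was 1 without any 1 GFP array or wtARRB1 replicate 1, 2 without parental replicate 2 or 3 or wtARRB1 replicate 2, and 8 after median scaling.

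Energy metabolism was mixed. Of 26 glycolysis and glucose transport genes 6 fell and 2 rose (median -0.31). TPI1, triose phosphate isomerase, read 13.87, 13.76 and 13.99 in GFP and 12.78 and 13.04 in wtARRB1 and fell by 0.96 (adjusted p = 7.6e-05). PFKFB3, PKM and GAPDH fell by 0.89, 0.81 and 0.78, calls that ended without at least 3 single arrays each (adjusted p up to 0.0313, 0.0684 and 0.0252). ENO3, the muscle enolase, read 8.25, 8.47 and 8.18 against 9.56 and 9.33 and rose 2.20-fold (adjusted p = 1.7e-05). PGM1, phosphoglucomutase, rose 1.84-fold and lost its call without GFP replicate 1 or 2 or wtARRB1 replicate 1 (adjusted p up to 0.0897). Without GFP replicate 1 or wtARRB1 replicate 1 there were 3 lower members. Of 26 hypoxia response genes 5 rose and 1 fell (median 0.33, but 0.12 after median scaling and 0.04 without scaling). Beside VEGFA and STC2 these were BNIP3L, a mitophagy receptor (8.21, 8.68 and 8.40 in GFP, 9.88 and 9.92 in wtARRB1, 2.78-fold), PPARG, a lipid-sensing nuclear receptor (2.06-fold, not called without wtARRB1 replicate 1, adjusted p = 0.0177), and INSIG2, a brake on sterol synthesis picked after its values were seen (1.88-fold). CA12, a carbonic anhydrase, fell by 0.68, a call that ended without most single arrays (adjusted p up to 0.0643). Among 14 measured HIF1A targets that the study's text names 6 rose and 0 fell (median 0.90). The study chose those genes on these samples, so they are no independent evidence of their direction. The mean of these 14 genes was 0.98 and 0.75 from the GFP mean in wtARRB1, and 0.53, 0.10 and 0.07 in parental replicates 1, 2 and 3. For the hypoxia response list it was 0.47 and 0.33 in wtARRB1 and 0.27, -0.01 and 0.00 in the parental arrays. Parental replicate 1, which carried no transgene, was also above the GFP arrays, and why it was so was not tested. Without it in the fit, 8 of the HIF1A targets and 7 of the hypoxia response genes were called higher. The list medians, which use no parental array, stayed at 0.90 and 0.33. With all arrays VEGFA, STC2, BNIP3L, ENO3, PPARG and PGM1 were the 6 risen HIF1A targets, and the other 8 did not pass. Of the 14 genes 12 had a positive difference. ALDOA (-0.31, limma, adjusted p = 0.209) and HK2 (-0.26, adjusted p = 0.208) had a negative one.

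In the pyruvate dehydrogenase complex and the TCA cycle 2 of 26 rose and 2 fell (median -0.12). The cytosolic IDH1, which makes NADPH, read 11.48, 11.59 and 11.60 in GFP and 12.88 and 12.61 in wtARRB1 and rose 2.29-fold (adjusted p = 3.03e-05). The mitochondrial IDH2 read 10.59, 11.08 and 11.05 against 9.68 and 10.06 and fell by 1.03, a call that ended without GFP replicate 2 or 3 or wtARRB1 replicate 1 (adjusted p up to 0.0401). SUCLA2, a subunit of succinyl-CoA ligase, rose 1.91-fold, and DLAT, the E2 subunit of pyruvate dehydrogenase, fell by 0.63 (not called without wtARRB1 replicate 1, adjusted p = 0.0269). SDHA, a succinate dehydrogenase subunit that the study's text names, differed by -0.63 and did not pass (limma, adjusted p = 0.0106). Its second probe, also at -0.63, did not pass either (adjusted p = 0.0268). A second list from the study's text, of metabolic enzymes, had 5 measured members, of which 1 rose, 1 fell and 3 did not pass (median -0.58). Of these 5 genes 1 had a positive difference. The study named them on these samples, so they are no independent evidence of their direction. Another NADPH source, the malic enzyme ME1, rose 2.42-fold. Complex I had 1 of 31 genes called, NDUFB1 (-0.58), and complexes III to V 2 of 32, COX7A2 (0.72) and COX6A1 (0.55). All 3 calls ended without at least 1 array (adjusted p up to 0.0392, 0.0846 and 0.164). Of 45 mitochondrial ribosomal protein genes 3 rose and 7 fell (median -0.15), counts that were 0 and 4 without wtARRB1 replicate 2, 4 and 1 without wtARRB1 replicate 1, and 0 and 10 after median scaling. Without any 1 GFP array 2 of them were lower.

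Prostate luminal and androgen response genes did not move one way, with 2 of 26 higher, 2 lower and a median of 0.03. FOLH1, prostate-specific membrane antigen, read 9.39, 9.30 and 9.41 in GFP and 10.56 and 10.45 in wtARRB1 (2.20-fold, not called without wtARRB1 replicate 1, adjusted p = 0.0124). STEAP2, a metalloreductase of prostate epithelium, rose 2.16-fold. FKBP5, a steroid-induced co-chaperone, read 9.52, 9.89 and 9.84 against 8.27 and 8.44 and fell by 1.40 (not called without wtARRB1 replicate 1, adjusted p = 0.0108). The elongation factor ELL2 fell by 1.02 and lost its call without any GFP array or without wtARRB1 replicate 1 (adjusted p up to 0.106). TSC22D3 and FKBP5, both known glucocorticoid-induced genes, thus went opposite ways. None of 14 androgen glucuronidation and steroid enzymes and none of 15 CREB and p300 targets was called by limma. In each list 1 gene had an unadjusted p under 0.05, and with a variance trend and robust shrinkage 0 were called.

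Several smaller groups held a few called genes, beside 9.01% of all genes. For the interferon-induced, iron and immediate early lists the count was near that share and shows nothing particular to them. Of 13 trypsinogens and serpins 3 rose and 1 fell. The trypsinogens PRSS1 (7.48, 7.67 and 7.80 in GFP, 10.56 and 9.66 in wtARRB1, adjusted p = 9.4e-05) and PRSS3 (6.79, 6.83 and 6.83 against 8.51 and 8.01, 2.72-fold) rose with SERPINA3 (6.12, 6.48 and 6.10 against 9.12 and 8.54). SERPINE2, an inhibitor of thrombin and related proteases, fell by 0.78 (8.76, 9.08 and 8.92 against 8.39 and 7.89), a call that ended without any of 6 single arrays (adjusted p up to 0.171). PRSS1 and PRSS3 are close paralogues, and cross-hybridisation between them was not tested. ISG20, an interferon-induced exonuclease, rose 3.34-fold and IFI6 1.77-fold, whereas OAS3, of the viral RNA sensors, fell by 1.07, and the other 20 of 23 interferon-induced genes did not pass. TFRC, the transferrin receptor, fell by 1.12 (12.78, 13.17 and 13.13 in GFP, 11.95 and 11.86 in wtARRB1, adjusted p = 4.7e-05). It was the 1 gene called of 11 in iron and heme handling. KLF6 fell by 1.57, alone among 15 immediate early factors, and lost its call without any 1 of the 8 control and wtARRB1 arrays (adjusted p up to 0.0941). The cancer-testis antigen MAGEC2 rose 1.95-fold from 6.03, 6.08 and 6.41 in GFP, values not shown to be above background.

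**Figure D4:**
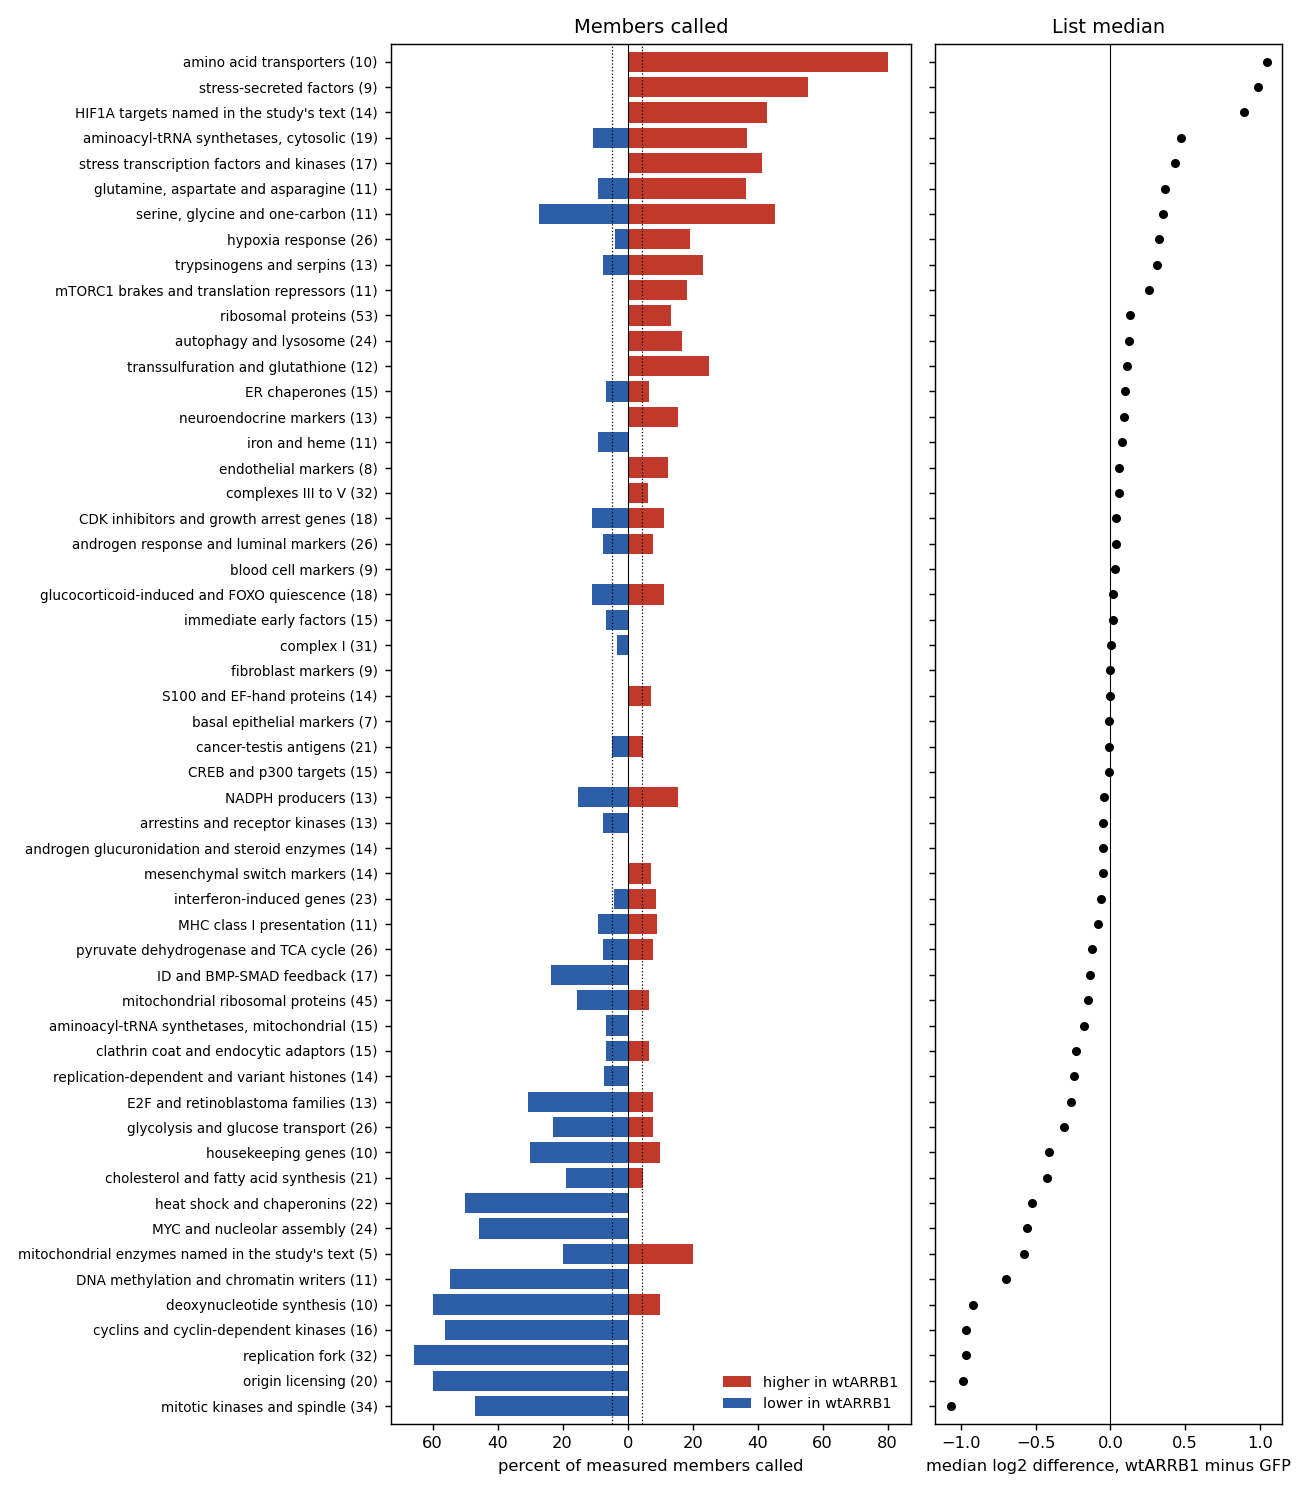
Left, the percent of measured members (number in brackets) called higher or lower in wtARRB1 against GFP for each of the 54 lists, with dotted lines at the shares over all genes (4.3% and 4.71%). Right, the median log2 difference of each list, from 1.05 for amino acid transporters to -1.07 for mitotic genes.

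Of all genes 9.01% were called, and the lists of markers of other cell types are too small for their counts to be told from that share. None of 7 basal, 9 fibroblast and 9 blood cell markers was called by limma (0, 1 and 0 had an unadjusted p under 0.05, and 0 were called with a variance trend and robust shrinkage), and the list medians were -0.01, -0.00 and 0.03. Among 8 endothelial markers VWF rose by 0.57 (adjusted p = 0.0071), and the call ended without any of 6 arrays (adjusted p up to 0.0933). Of 13 neuroendocrine markers 2 rose, DDC (1.15) and NOVA1 (1.16), and of 14 mesenchymal markers 1, LCP1 (1.65). DDC and NOVA1 each lost the call without wtARRB1 replicate 2 (adjusted p = 0.0111 and 0.0156). NOVA1 read 8.19, 7.46 and 7.21 in parental cells, 6.14, 6.44 and 6.29 in GFP and 7.39 and 7.51 in wtARRB1, and was among the 9 genes called in GFP against parental. Genes often used as references were not steady, with 3 of 10 lower and 1 higher. TUBB, a β-tubulin, read 13.20, 13.22 and 13.34 in GFP and 11.17 and 11.45 in wtARRB1 and fell by 1.94 (adjusted p = 9.4e-08), and ACTB, β-actin, fell by 0.85.

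Where wtARRB1 differed from the nuclear fusion was tested directly. In nucARRB1 against GFP, which shares the GFP arrays, 2028 genes were called (10.9%), with 927 higher (4.97%) and 1101 lower (5.9%). Of 18664 genes 12 were called in nucARRB1 against wtARRB1 (0.0643%), 9 higher in nucARRB1 (0.0482%) and 3 lower (0.0161%), and 1880 genes had an unadjusted p under 0.05 (10.1%). The count was 244 without nucARRB1 replicate 2, 19 without wtARRB1 replicate 1, 7 without GFP replicate 2, 6 without nucARRB1 replicate 1, 5 without parental replicate 2 and 3 without wtARRB1 replicate 2. A pair of marker genes read highest in wtARRB1, though both were also bright in GFP and nucARRB1. LCP1, the actin-bundling protein L-plastin, read 11.08, 11.05 and 11.55 in GFP, 12.77 and 12.98 in wtARRB1 and 11.06 and 10.30 in nucARRB1 (nucARRB1 minus wtARRB1 -2.19, adjusted p = 0.0017). DDC, the decarboxylase that makes dopamine and serotonin, read 11.94, 11.62 and 12.01 in GFP, 12.91 and 13.11 in wtARRB1 and 11.38 and 11.02 in nucARRB1 (-1.81, adjusted p = 0.0006). For both, wtARRB1 was above every other array. The unannotated LOC100129434 behaved likewise (-1.31, adjusted p = 0.000455), rising by 1.07 in wtARRB1 against GFP.

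In the other direction, the cancer-testis antigen CTAG2 read 7.27, 8.37 and 7.55 in GFP, 6.25 and 6.56 in wtARRB1 and 9.92 and 10.64 in nucARRB1 (nucARRB1 minus wtARRB1 3.88, adjusted p = 6.9e-06). Against GFP it fell by 1.33 in wtARRB1, a call that ended without wtARRB1 replicate 1 (adjusted p = 0.0339), and against parental cells, at 6.82, 6.88 and 6.90, it did not pass (adjusted p = 0.459). Its near-identical relative CTAG1A read 6.37, 6.98 and 6.95 in GFP, 6.51 and 5.99 in wtARRB1 and 8.41 and 8.93 in nucARRB1 (2.42), and probes of the family may share signal. VIM, vimentin, read 7.86, 7.46 and 7.38 in GFP, 7.48 and 6.83 in wtARRB1 and 9.005 and 8.51 in nucARRB1 (1.60, adjusted p = 0.0036). TNFRSF19, a receptor of the TNF family, read 9.56, 10.26 and 10.46 in GFP, 9.21 and 9.15 in wtARRB1 and 11.52 and 10.74 in nucARRB1 (1.95). HERC5, an interferon-induced ligase, differed by 1.28, VCX2, a testis-specific gene, by 1.30, MS4A13 by 1.15 and GTF2A1L, a germ cell transcription factor, by 1.09. None of CTAG1A, VIM, TNFRSF19, HERC5, VCX2, MS4A13 and GTF2A1L was called in wtARRB1 against GFP. The remaining gene was Y-linked and its level is not given.

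**Figure D5:**
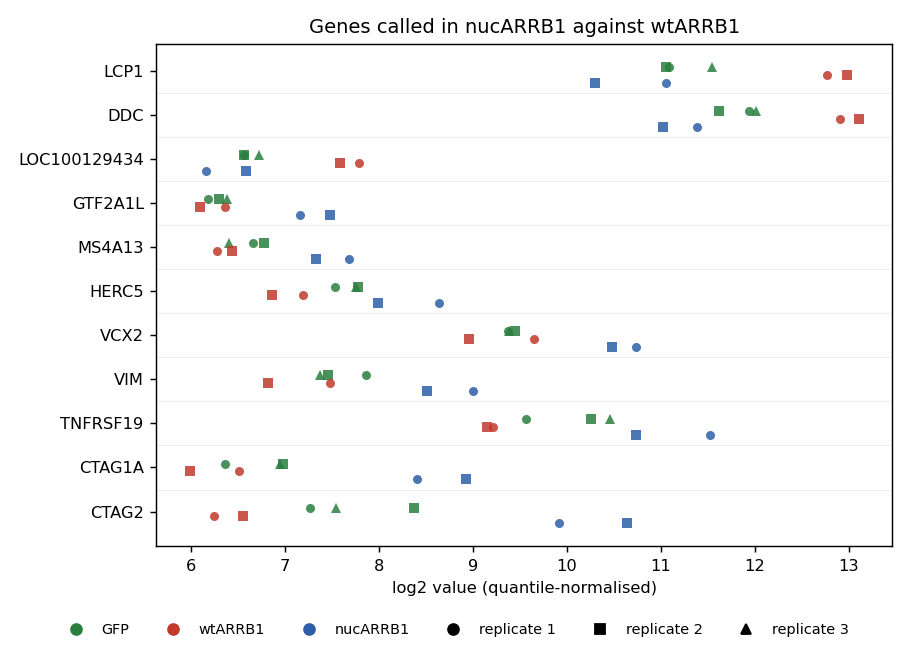
Log2 values per array (x axis) of 11 genes called between nucARRB1 and wtARRB1, with colours for groups and symbols for replicate numbers. LCP1, DDC and LOC100129434 are highest in wtARRB1, and the other 8 are highest in nucARRB1.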

How the data were processed

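Total RNA of C4-2 cells was hybridised as biotinylated cRNA to Illumina BeadChips, which gave 10 arrays. The authors pre-processed the arrays in R with beadarray and deposited log2 values per probe in 1 table without normalisation between arrays and in 1 that was quantile-normalised. Background correction and detection p-values were not given in the sources used here, so signal over background was not measured and small rises of dim genes may be understated. The quantile-normalised log2 table was used, and the other served for alternatives.

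Groups came from the sample titles. Gene names came from the array annotation, updated by Entrez ID. Of 48801 probes 27576 had 1 symbol, 13 several and 21212 none, and each of 18664 genes was represented by its brightest probe over all arrays (5913 had several). Of the genes called in wtARRB1 against GFP 634 had several probes. Another probe was called the same way for 205 of them and the opposite way for 0. For VEGFA, BNIP3L, PPARG and SLC6A9 only the brightest probe was called. ARRB2 and some other genes were not analysed here.

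Group means were fitted to 10 arrays with limma 3.58.1 under R 4.3.3 (lmFit, eBayes, residual df 6, prior df 9.94). Tests were two-sided, with Benjamini-Hochberg adjustment across every probe, and called at a false discovery rate of 1%. Folds were computed from log2 differences, SE is that of the moderated fit, and the small number of arrays limits the precision.

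The 54 gene lists (982 genes, 917 measured) and the genes named were chosen with earlier results of these data known. Named were ARRB1, the 12 largest rises and falls without overlap, and genes called in both wtARRB1 comparisons or in both GFP ones. Up to 4 called members per list and direction were named, and all called members of lists with 5 or fewer. Genes the study's text names for the arrays were also chosen, of which those that did not pass are given only in part. Promoters came from RefSeq GRCh38.p14. Alternatives were other scalings, subsets of arrays, a replicate block, a filter on dim probes, array weights, a variance trend with robust shrinkage, any probe of a gene, a false discovery rate of 5% and parental arrays as control.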

Additional observations from a re-analysis of the deposited data

Results flagged for a closer look

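The effects of wild-type and nuclear ARRB1 were compared by a direct test within the same fit, and 11 genes are listed here because that test called the difference between the lines (limma, false discovery rate of 1%). As log2 differences of nucARRB1 minus wtARRB1, LCP1 was at -2.19, DDC at -1.81 and LOC100129434 at -1.31. GTF2A1L was at 1.09, MS4A13 at 1.15, HERC5 at 1.28, VCX2 at 1.3 and VIM at 1.6. TNFRSF19 was at 1.95, CTAG1A at 2.42 and CTAG2 at 3.88. Groups of 2 or 3 arrays were too small for a search for single outlying arrays.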

How the results depend on the processing

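The count of 1681 called genes was 1014 to 2133 when each array was left out in turn, 2714 at a false discovery rate of 5% and 910 with parental arrays as the control. Higher genes (802) numbered 497 to 1012 with an array left out, 345 after median scaling, 204 without scaling, 1303 at 5% and 461 against parental. Lower genes (879) numbered 517 to 1121, 1331 without scaling, 1411 at 5% and 449 against parental. Genes at least 2-fold higher (250) numbered 123 after median scaling, 94 without scaling and 155 against parental, and those at least 2-fold lower (246) numbered 499, 645 and 121. The 12 genes of nucARRB1 against wtARRB1 numbered 3 to 244 with an array left out, 3 after median scaling, 5 without scaling, 6 without the parental arrays and 34 at 5%. The 9 genes of GFP against parental numbered 0 to 33, 3 after median scaling, 3 without scaling, 2 without dim probes, 20 with array weights and 43 at 5%. The 910 genes of wtARRB1 against parental numbered 364 to 1308, 1713 at 5% and 543 with the replicate block. Arrays of the same number in wtARRB1 and GFP did not deviate together (r = 0.05 and 0.00 over probes), so the numbers were not taken to pair them. With the replicate number as a block 1214 genes were called in wtARRB1 against GFP, 1188 of them among the 1681. The cause of these shifts was not tested. Quantile normalisation applied here shared 1670 of the 1681 calls. Leaving out single arrays ended the call of 72 of the 162 called genes named by rule and of 0 of the 24 largest changes. Of the 162 called genes 0 turned direction, and named genes that did not pass were not checked for a turn. The median of 0 of the 21 lists at or beyond 0.3 changed sign, but sizes moved with the scaling. After median scaling and without scaling, the glutamine, aspartate and asparagine median was 0.09 and 0.001. That of the hypoxia response was 0.12 and 0.04, and that of the replication fork -1.12 and -1.20. The filter by detection p was not run, and signal over background is unknown.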

Other observations

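Tubulin genes, the subunits of microtubules, were looked at after TUBB had been seen to fall, so their count is a description. Of 22 measured, 7 were lower in wtARRB1 than in GFP, 2 were higher and 13 did not pass, with a median of -0.46. TUBA4A fell by 1.87, TUBB4B by 1.84, TUBG1 (γ-tubulin of the centrosome) by 1.84 and TUBA1C by 1.69. Those 4 kept their calls without any 1 array. TUBE1, ε-tubulin, read 6.98, 6.78 and 6.50 in GFP and 7.84 and 8.01 in wtARRB1 and rose by 1.17.

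Other genes picked after their values were seen belonged to none of the lists. CD55, a membrane inhibitor of complement, read 6.63, 6.63 and 7.02 in GFP and 8.65 and 9.03 in wtARRB1 (4.23-fold). DHRS3, which reduces retinal, rose 4.87-fold, and CCPG1, an ER-phagy receptor, 3.60-fold. BEX2 read 11.82, 11.58 and 11.54 in GFP and 13.83 and 13.01 in wtARRB1, while its relative BEX1 read 9.49, 9.60 and 9.80 against 8.35 and 8.17. The parental arrays read 8.59, 8.04 and 7.81 for BEX1, so that on this probe the GFP arrays were the ones apart. A second BEX1 probe read 8.50, 8.59 and 8.66 in parental cells, 9.14, 8.64 and 8.495 in GFP and 8.72 and 8.42 in wtARRB1. Its difference of -0.19 was not called (limma, adjusted p = 0.686), and the GFP arrays did not stand apart on it.

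TMEM140 read 7.56, 7.31 and 7.74 in GFP, 9.66 and 9.15 in wtARRB1 and 7.87 and 8.46 in nucARRB1, and its difference of nucARRB1 minus wtARRB1 was -1.24 (adjusted p = 0.0314, limma). CAMK2N1, an inhibitor of CaMKII, read 9.48, 9.25 and 10.14 in GFP, 12.24 and 11.52 in wtARRB1 and 8.41 and 10.95 in nucARRB1 (-2.20, adjusted p = 0.162). Neither difference between the lines passed the threshold of 1%.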
